A study of Mus musculus with 6 samples.

Results

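The apelin and angiopoietin-TIE systems were described in mouse hearts as 7 named genes, of 19938 genes measured with a transcript cluster of their own. A transcript cluster is the group of array probes that an array design assigns to one locus. The apelin system was represented by the ligands Apln and Apela and the receptor Aplnr, and the angiopoietin-TIE system by the ligands Angpt1 and Angpt2 and the receptors Tek and Tie1. Members were chosen by gene name. The selection rule takes the cluster with the highest mean over all 6 arrays where a gene has several, but each member had 1 single-gene cluster, so no measured value decided between clusters. The genes were picked with earlier results of these data known, in which Aplnr and Tie1 were lower in ETX, so their tests are not independent evidence. Of the 7 members 6 lay above the filter on dim genes and were tested, and Apela lay below it.

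The hearts came from C57BL/6J mice at postnatal day 14. They were taken after 1 week of treatment with ETX, an abbreviation that the labels do not spell out, or with the vehicle, phosphate-buffered saline (PBS). Each group held 3 hearts (PBS replicates 3, 9 and 12 and ETX replicates 6, 7 and 10), described as biological replicates and measured with 1 Affymetrix array each. The precision of every value is limited by this number of arrays. The labels give neither dose nor sex nor the part of the heart taken. In whole hearts, fewer cells of a type and less RNA per cell cannot be told apart.

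The hearts were heart tissue by their transcripts, but differed in other tissue. The mean log2 signal of 9 cardiomyocyte markers lay between 12.20 and 12.32 in all 6 hearts. Epithelial transcripts of the lung were high in PBS replicates 3 and 9. The surfactant gene Sftpc was at 8.12 and 8.58 there, at 3.59 in PBS replicate 12 and between 3.10 and 3.31 in ETX. The mean of 9 lung markers spanned 3.51 to 7.80 in PBS and 3.60 to 3.65 in ETX, and that of 6 atrial markers 5.58 to 8.26 in PBS and 6.13 to 7.65 in ETX. By Xist, PBS replicate 3 and ETX replicates 6 and 10 were female. Without the 3 hearts highest in atrial markers (PBS replicate 3 and ETX replicates 6 and 7, which leaves ETX replicate 10 alone) the 3 members called below differed by -0.87 (Aplnr), -1.01 (Angpt1) and -0.49 (Tie1) and did not pass (limma adjusted p = 0.352, 0.275 and 0.568). Tek was at -0.19 (limma adjusted p = 0.696) and Apln at 0.16 (0.736) in that fit.

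Apelin and ELABELA (the product of Apela) are secreted peptides that act on the same G protein-coupled receptor, the apelin receptor encoded by Aplnr, which is found mainly on endothelial cells and is known for roles in heart development, vessel growth and cardiac contractility. TEK, also called TIE2, is an endothelial receptor tyrosine kinase. ANGPT1, which comes mainly from mural and other perivascular cells and from heart muscle, activates it and stabilises vessels, whereas ANGPT2, stored and released by endothelial cells, can act as its antagonist. TIE1 is the related receptor that binds no angiopoietin strongly by itself and modulates TEK.

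The promoters of the paired receptors Tie1 and Tek are shown because the former fell and the latter did not pass the test, as described below. Both are 300 bases from RefSeq's GRCm38.p6 annotation, spanning the annotated start and written 5′ to 3′ on the gene's strand. The Tie1 window is chr4:118489800-118490099 on the minus strand and the Tek window chr4:94739039-94739338 on the plus strand. Capitals mark each GGAA or its reverse complement TTCC, the core letters recognised by ETS transcription factors.
Tie1: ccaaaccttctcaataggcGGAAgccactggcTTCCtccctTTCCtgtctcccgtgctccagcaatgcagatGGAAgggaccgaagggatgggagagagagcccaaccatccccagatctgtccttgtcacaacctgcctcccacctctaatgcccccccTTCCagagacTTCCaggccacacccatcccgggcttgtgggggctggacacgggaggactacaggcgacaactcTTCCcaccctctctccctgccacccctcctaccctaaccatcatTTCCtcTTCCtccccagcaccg
Tek: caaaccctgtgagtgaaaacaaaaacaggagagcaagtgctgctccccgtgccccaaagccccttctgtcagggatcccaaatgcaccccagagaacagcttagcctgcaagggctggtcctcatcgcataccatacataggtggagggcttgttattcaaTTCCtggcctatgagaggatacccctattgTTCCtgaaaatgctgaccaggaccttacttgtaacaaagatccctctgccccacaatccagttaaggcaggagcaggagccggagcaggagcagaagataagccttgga
The Tie1 window held 9 GGAA matches over both strands, and 1.59% of 32851 promoter windows of this length held at least as many. The Tek window held 2, and 84.6% of windows held at least as many. The letters are common, with a match in 96.0% of windows and a median of 3. The Apln window (chrX:48034804-48035103, minus strand) had 4 and the Apela window (chr8:65037287-65037586, minus strand) had 6, with at least as many in 46.3% and 15.7% of windows. Of the other motifs searched on both strands, the KLF core CACCC had 3 matches in the Tie1 window and 1 in the Tek window. None shared a base with a capital. At least 1 match is held by 57.5% of all windows and at least 3 by 9.35%. The forkhead motif TGTTTAC had 1 match, in the Apela window, and 3.65% of windows hold it. The core of the hypoxia response element, ACGTG, is in 19.6% of windows and was not found in these 4. Promoters were matched for 4 of the 7 members. No window was available for Angpt2, nor for Aplnr and Angpt1, which fell as Tie1 did. A match in letters is a description of the window, and a link to the expression differences was not tested.

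In the comparison of ETX with PBS hearts, 3 of the 6 tested members fell: the apelin receptor Aplnr, the TEK activator Angpt1 and the TIE receptor Tie1. No tested member rose, and Tek, Apln and Angpt2 did not pass. Over the 14953 genes in the fit, 3.56% had a limma adjusted p under 0.05, with 2.43% lower and 1.14% higher in ETX. The groups did not overlap for 4 of the 6 tested members, the 3 that fell and Tek, all lower in ETX. The same held for 27.7% of tested genes in either direction and for 16.1% as lower in ETX. The share of calls that were lower was 68.1% with the values as deposited, 78.6% with arrays centred on their medians and 58.3% after a further quantile normalization, and the 3 members fell under each of these scalings. Over all transcript clusters, unnamed ones included, the split turned, with 44.5% of calls lower, and the 3 members fell there too. An unadjusted p under 0.05 was reached by 21.9% of tested genes, 13.1% as lower and 8.86% as higher, which is the base for the unadjusted counts given below.

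**Figure D1:**
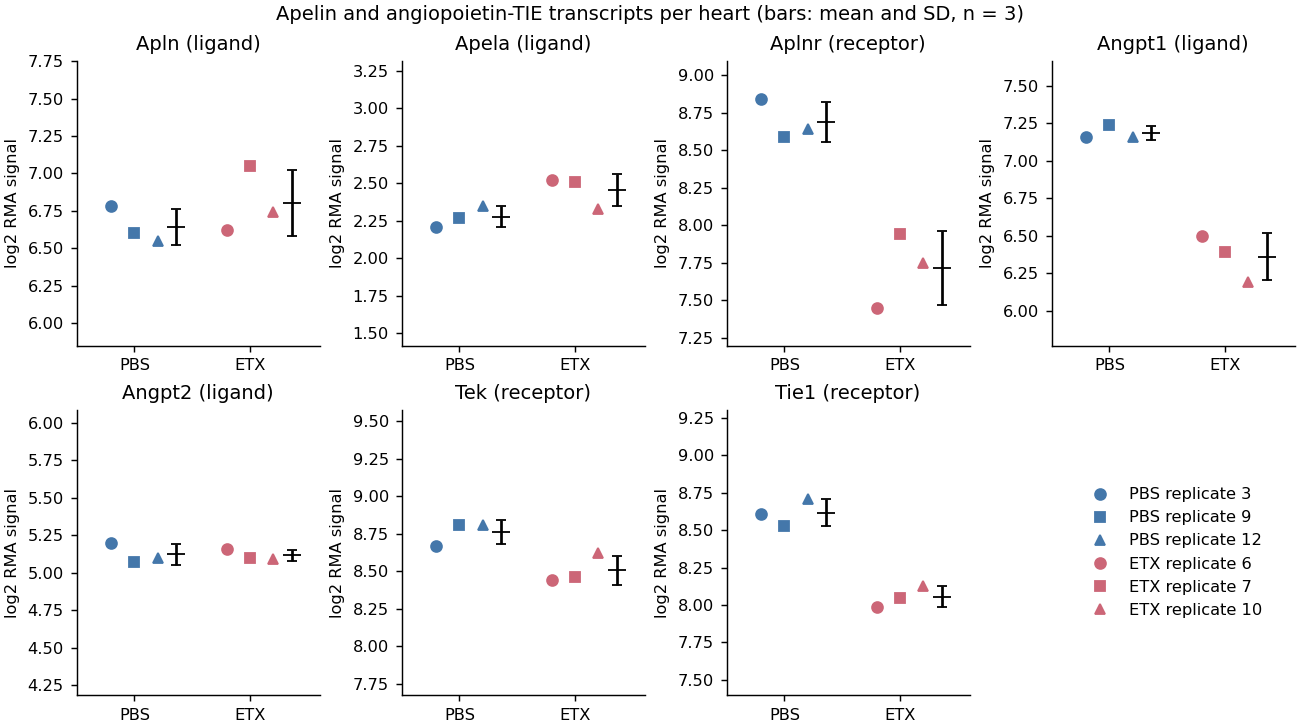
Log2 RMA signal of each member (vertical axis, the same span of 1.9 log2 units in every panel) in the 3 PBS hearts (blue) and 3 ETX hearts (red), with the group mean and SD as black bars. Aplnr, Angpt1 and Tie1 show a gap of 0.66, 0.66 and 0.40 between the groups, whereas Apln, Apela and Angpt2 overlap.

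Among the ligands of the apelin system, Apln was at 6.78, 6.60 and 6.55 in PBS replicates 3, 9 and 12 and at 6.62, 7.05 and 6.74 in ETX replicates 6, 7 and 10. The groups overlapped, and ETX replicate 7 was the highest heart. The mean was 6.64 ± 0.12 in PBS and 6.80 ± 0.22 in ETX (SD, n = 3 per group), a log2 difference of 0.16 with a 95% interval of -0.11 to 0.43 (limma adjusted p = 0.479). The interval includes no difference as well as a rise of 0.43. Without ETX replicate 7 the difference was 0.04, and without ETX replicate 6 it was 0.25. The groups differed by -0.10 in female hearts (1 PBS, 2 ETX) and by 0.48 in male hearts (2 PBS, 1 ETX). The limma test of that sex difference, with 2 residual degrees of freedom, did not pass over all genes. PBS held 1 female heart and ETX 1 male heart. Here and for the members below, the test therefore cannot show that the sexes agree.

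Apela was at 2.21, 2.27 and 2.35 in PBS and 2.52, 2.51 and 2.33 in ETX in the same order of replicates. Every value was below 3.45, the log2 level under which a gene was treated as dim, so no fold is given. ETX replicate 10 lay inside the PBS range. When dim genes were kept, the log2 difference of 0.18 had a limma adjusted p of 0.279.

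The receptor Aplnr was at 8.84, 8.59 and 8.64 in the PBS hearts and at 7.45, 7.94 and 7.75 in the ETX hearts. The lowest PBS heart lay 0.66 above the highest ETX heart, and the ETX hearts were more spread than the PBS hearts. The mean fell from 8.69 ± 0.13 to 7.71 ± 0.25, a difference of -0.98 (95% interval -1.27 to -0.69), which leaves a signal of 50.7% of PBS (limma adjusted p = 0.0116). Only 0.468% of tested genes had a more negative difference. PBS replicate 12, low in lung markers, was at 8.64, and the difference of the ETX mean from this heart alone was -0.93. Adding the score of lung markers as a covariate gave -0.99, which did not pass (limma adjusted p = 0.0663). Leaving out PBS replicate 3 gave -0.91 and ended the call (limma adjusted p = 0.0514). Over all alternatives its limma adjusted p ran from 0.0047 to 0.695. The difference was -1.24 in female hearts (1 PBS heart) and -0.68 in male hearts (1 ETX heart). The limma test of that sex difference did not pass over all genes.

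Receptor and ligand were also compared within each heart. The log2 signal of Apln minus that of Aplnr was -2.06, -1.99 and -2.09 in PBS replicates 3, 9 and 12 and -0.83, -0.88 and -1.01 in ETX replicates 6, 7 and 10. The level of such a difference has no meaning between probes, but its change does: it rose to a value 1.14 above that of PBS (95% interval 0.97 to 1.31, from a linear model over the hearts). ETX replicate 7, highest in Apln, was also the ETX heart highest in Aplnr, and the spread of the difference was smaller (SD 0.05 and 0.10) than that of Aplnr itself. With 3 hearts against 3 the exact two-sided permutation test cannot go below 0.1, which this pair reached, and adjusted over the 6 pairs computed the exact p was 0.12. Most of the change of 1.14 was the fall of Aplnr (-0.98), beside a difference of 0.16 in Apln. All pairs subtract member values given in this report, so they are not separate evidence of a change. No value is read from the pair of Apela and Aplnr, since Apela was dim in every heart and the pair repeats the values of Aplnr.

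**Figure D2:**
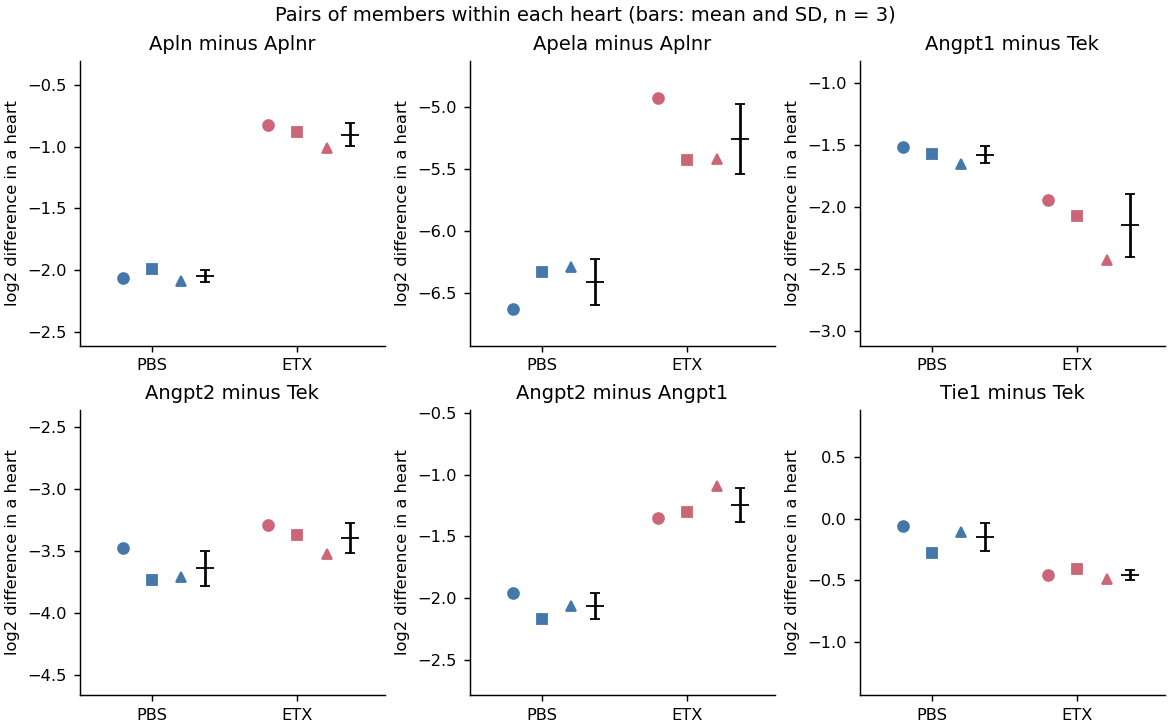
Difference of the log2 signals of 2 members within each heart (vertical axis, the same span in every panel), with PBS hearts in blue, ETX hearts in red (symbols as in the plot of members by heart) and mean and SD in black. Apln minus Aplnr moved from -2.05 to -0.91 and Angpt2 minus Angpt1 from -2.06 to -1.25, without overlap, while Angpt2 minus Tek overlapped between the groups.

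Other genes of the apelin pathway were read from a list of 17 that process the ligands or act below the receptor, of which 15 were tested. Of these 1 passed, and it fell: Mme, the membrane peptidase neprilysin that cleaves apelin and other peptides. It was at 6.08, 6.25 and 6.18 in PBS and 4.82, 4.78 and 4.91 in ETX, a difference of -1.33 (limma adjusted p = 0.000555) that passed in all 6 fits without 1 heart. Gnai2, a subunit of the inhibitory G protein to which the receptor couples (-0.22, limma adjusted p = 0.0822), and Arrb1, the beta-arrestin of receptor desensitisation (-0.24, 0.11), did not pass. Nor did the nitric oxide synthase Nos3 (-0.06, 0.737), the flow-responsive factor Klf2 (-0.32, 0.299) or Furin, a protease that processes proapelin (0.08, 0.613). Of the 15 genes 12 lay below 0, and their median was -0.17 against -0.0063 for all genes tested.

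Of the angiopoietins, Angpt1 was the member with the smallest p. It was at 7.16, 7.24 and 7.16 in PBS and 6.50, 6.39 and 6.19 in ETX. The PBS hearts lay within 0.08 of each other, and every ETX heart was at least 0.66 below them. The mean fell from 7.19 ± 0.04 to 6.36 ± 0.16, a difference of -0.82 (95% interval -1.03 to -0.62, limma adjusted p = 0.00685), or 56.5% of the PBS signal. A more negative difference was found in 0.615% of tested genes. Angpt1 passed whichever single heart was left out (limma adjusted p from 0.0194 to 0.034) and after adding the score of lung markers (-0.79, 0.0494). Within female hearts (1 PBS, 2 ETX) the difference was -0.82 and within male hearts (2 PBS, 1 ETX) -0.80. The limma test of that sex difference did not pass over all genes. Against PBS replicate 12 alone the difference was -0.80 (limma adjusted p = 0.0909).

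Angpt2 was level between the groups. It was at 5.20, 5.07 and 5.10 in PBS and 5.16, 5.10 and 5.09 in ETX. All ETX values lay inside the PBS range, and the difference was -0.01 with a 95% interval of -0.16 to 0.15 (limma adjusted p = 0.964). The interval excludes a change as large as that of Angpt1. Within hearts, Angpt2 minus Angpt1 was 0.82 higher in ETX (95% interval 0.54 to 1.09, exact permutation p = 0.1, the smallest possible), with every ETX heart above every PBS heart. Because Angpt2 was level, this pair restates the fall of Angpt1 and is not separate evidence.

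The sources of Angpt1 in the heart include mural cells, fibroblasts and muscle. Of 11 mural cell markers (pericytes and smooth muscle) 9 lay below 0 with a median of -0.12, and the matrix protein gene Vtn passed as lower (7.76 ± 0.03 in PBS, 6.86 ± 0.13 in ETX, limma adjusted p = 0.00487). The median was -0.21 without ETX replicate 6. The mean level of the mural markers was 8.16, 8.08 and 8.10 in PBS and 8.09, 7.94 and 7.85 in ETX, so that ETX replicate 6 lay inside the PBS range. With this mural score in the fit 10 genes in all passed. Angpt1 differed by -0.66 (limma adjusted p = 0.0757), Aplnr by -1.13 (0.0738) and Tie1 by -0.63 (0.0838), and none of the 3 passed. The receptors Pdgfrb (-0.24, limma adjusted p = 0.118) and Notch3 (-0.26, 0.12) did not pass. Of 7 fibroblast markers 5 lay below 0 and 1 passed, the growth factor receptor Pdgfra, which fell (-0.50, limma adjusted p = 0.0302) but passed in only 1 of the 6 fits without 1 heart. The matrix gene Postn was at 0.35 (limma adjusted p = 0.155). The mean of the fibroblast list was 9.42 to 9.58 in PBS and 9.34 to 9.54 in ETX. The 9 cardiomyocyte markers had a median of -0.07, and of -0.03 without ETX replicate 10. What part these cells had in the fall of Angpt1 was not tested.

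The receptor Tie1 was at 8.61, 8.53 and 8.71 in PBS and at 7.99, 8.05 and 8.13 in ETX. The groups were tight and 0.40 apart. The mean fell from 8.62 ± 0.09 to 8.06 ± 0.07, a difference of -0.56 (95% interval -0.73 to -0.39, limma adjusted p = 0.0129) and 67.9% of the PBS signal, and 1.54% of tested genes had a more negative difference. The highest of the PBS hearts was replicate 12, which was low in lung markers. Adding the score of lung markers gave -0.65 (limma adjusted p = 0.0419). The call ended without PBS replicate 3 (-0.56, limma adjusted p = 0.0545), without ETX replicate 7 (-0.56, 0.0604), and with PBS replicate 12 as the single PBS heart (-0.65, 0.0789). Within female hearts (1 PBS heart) the difference was -0.55 and within male hearts (1 ETX heart) -0.57. The limma test of that sex difference did not pass over all genes.

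Tek, the signalling receptor of the pair, was at 8.67, 8.81 and 8.81 in PBS and 8.44, 8.46 and 8.62 in ETX. The groups did not overlap but were separated by 0.05. The difference was -0.26 (95% interval -0.43 to -0.08) and did not pass over all genes (limma adjusted p = 0.112, unadjusted p = 0.0106). Leaving out single hearts gave values from -0.31 to -0.22, none of which passed. Tie1 minus Tek within hearts was -0.06, -0.28 and -0.11 in PBS and -0.46, -0.41 and -0.49 in ETX, a change of -0.30 (95% interval -0.49 to -0.11, exact permutation p = 0.1, the smallest possible). Angpt1 minus Tek changed by -0.57 (-0.99 to -0.14, exact p = 0.1), and Angpt2 minus Tek by 0.25 (-0.05 to 0.55, exact p = 0.2), where the groups overlapped.

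Of 19 further genes around the TIE receptors 18 were tested and 1 passed, the catalytic PI3-kinase subunit Pik3ca, which fell (-0.32, limma adjusted p = 0.0472) and lost the call in each of the 6 fits without 1 heart. The endothelial phosphatase Ptprb, which opposes TEK activity, was at 9.33, 9.40 and 9.38 in PBS and 9.04, 9.05 and 9.27 in ETX (-0.25, limma adjusted p = 0.127). This is close to the difference of Tek, and neither passed. The protease Adam17 (-0.32, 0.0837), the kinase Akt1 (0.21, 0.169) and Foxo1, the factor that AKT keeps out of the nucleus and a known driver of Angpt2 (-0.19, 0.235), did not pass. The third angiopoietin of the mouse, Angpt4, differed by -0.11 (limma adjusted p = 0.522). The list had 13 of 18 genes below 0 and a median of -0.13. Of the angiopoietin-like genes, which encode relatives that do not bind TEK, all 4 tested lay below 0 and did not pass in limma, 2 of them with an unadjusted p under 0.05, led by Angptl1 (-0.66, limma adjusted p = 0.112).

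**Figure D3:**
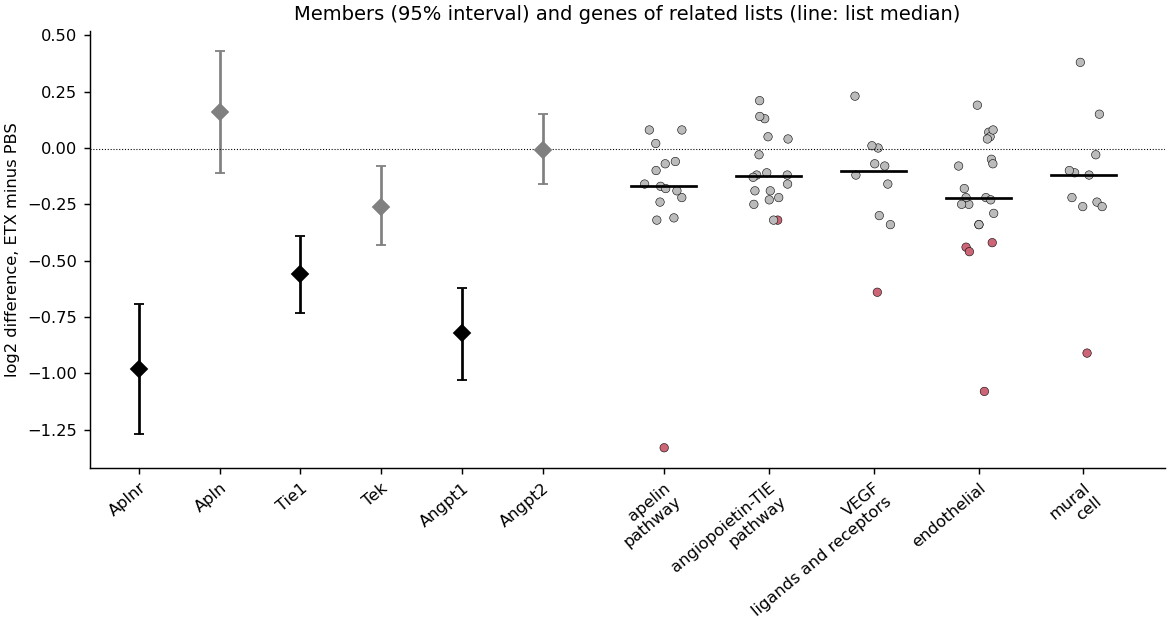
Log2 difference of ETX minus PBS (vertical axis) for the 6 tested members with 95% intervals (black diamonds passed an adjusted p of 0.05 in limma, grey ones did not) and for the genes of 5 lists (points, red where they passed), with the list median as a line and the median of all genes tested as a dotted line. Aplnr, Angpt1 and Tie1 at -0.98, -0.82 and -0.56 lie below the medians of the 5 lists, and Tek at -0.26 lies near the endothelial median of -0.22.

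The receptors are endothelial, and so their values were set beside other endothelial genes. Of 21 endothelial markers 16 lay below 0, with a median of -0.22, and 5 fell: the water channel Aqp1 (-1.08, limma adjusted p = 0.00649), the transcription factor Sox7 (-0.44, 0.0251), the adhesion molecules Esam (-0.34, 0.036) and Cdh5 (-0.42, 0.0462), and Cd93 (-0.46, 0.0499). With single hearts left out, Aqp1 passed in all 6 fits, Cdh5 and Cd93 in 1 each and Sox7 and Esam in 0. The adhesion molecule Pecam1 (-0.25, limma adjusted p = 0.12), the coreceptor Eng (0.07, 0.599) and the capillary lipase anchor Gpihbp1 (0.08, 0.551) did not pass. The mean signal of the list was 8.19, 8.22 and 8.22 in PBS and 7.94, 7.96 and 8.08 in ETX, a difference of -0.21 (95% interval -0.34 to -0.09).

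Relative to this endothelial mean in the same heart, Aplnr and Tie1 were lower in ETX and Tek was level. Aplnr and Tie1 were picked with their falls known and these differences reuse their values, so they are not separate evidence. Within the list, Aqp1 alone had a more negative difference (-1.08) than Aplnr (-0.98). Aplnr minus the mean changed by -0.77 (95% interval -1.22 to -0.31) and Tie1 minus the mean by -0.34 (-0.49 to -0.20), both without overlap between the groups (exact permutation p = 0.1, the smallest possible, and 0.15 adjusted over the 6 members). Tek minus the mean was 0.49, 0.59 and 0.59 in PBS and 0.50, 0.50 and 0.54 in ETX, a change of -0.04 (-0.14 to 0.06, exact p = 0.4). The interval of Tek excludes changes of the size seen for Aplnr and Tie1. Angpt1 minus the mean changed by -0.61 (-1.0 to -0.22, exact p = 0.1) and Apln minus the mean by 0.37 (-0.08 to 0.83, exact p = 0.1), or 0.23 without ETX replicate 7. With the endothelial score as a covariate Aplnr differed by -0.90 (limma adjusted p = 0.695), Tie1 by -0.37 (0.729), Angpt1 by -1.22 (0.301) and Tek by 0.05 (0.981). This score itself did not overlap between the groups, and 1 gene in all passed in that fit.

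**Figure D4:**
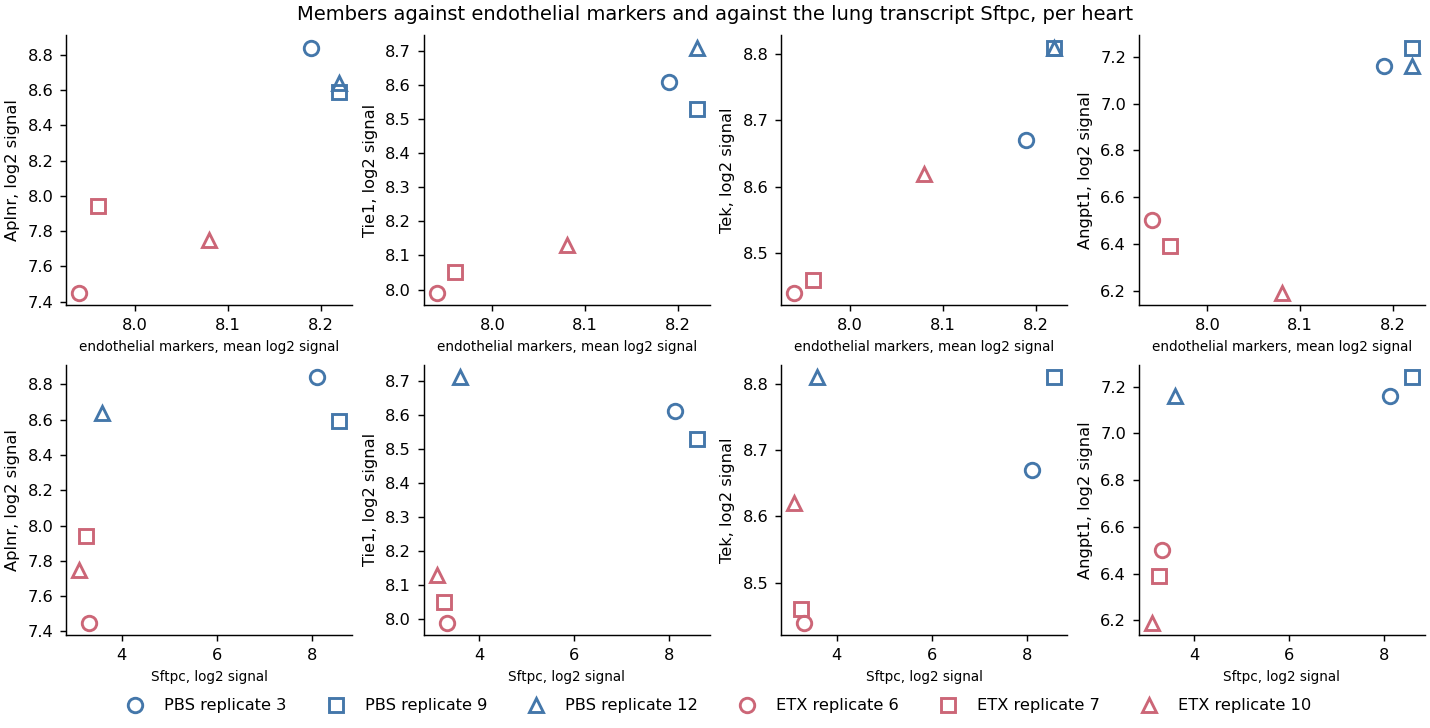
Log2 signal of Aplnr, Tie1, Tek and Angpt1 (vertical axes) against the mean log2 signal of 21 endothelial markers (top row) and against the lung transcript Sftpc (bottom row), 1 symbol a heart, PBS in blue and ETX in red. PBS replicate 12, with Sftpc at 3.59 (3.10 to 3.31 in ETX), lies with the other PBS hearts in all 4 members. That is a lone heart, and the part of lung tissue in the member differences was not tested.

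Among the vascular endothelial growth factor (VEGF) ligands and receptors, another tyrosine kinase system of endothelium, 1 of 10 passed. The coreceptor Nrp2 fell (-0.64, limma adjusted p = 0.0251), with the call kept in 2 of the 6 fits without 1 heart. Flt4, the receptor of lymphatic endothelium, differed by -0.30 (limma adjusted p = 0.0586) and its ligand Vegfc by -0.34 (0.141). The main receptor Kdr (-0.12, 0.416), its decoy Flt1 (0.01, 0.962) and the ligand Vegfa (-0.08, 0.537) did not pass. Apln and Angpt2 are also known as genes of sprouting tip cells. Of 9 other tip cell genes none passed in limma, 2 being higher and 3 lower at an unadjusted p under 0.05, with Cxcr4 at -0.36 (limma adjusted p = 0.0904) and Adm at 0.26 (0.0977).

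Markers of endothelial subtypes gave further values beside the receptors. Of 7 arterial markers all lay below 0 and Hey1, a NOTCH target, fell (-0.43, limma adjusted p = 0.0315), passing in 1 of the 6 fits without 1 heart. None of 5 tested venous markers passed in limma or had an unadjusted p under 0.05. Ephb4 was at -0.14 (limma adjusted p = 0.298), Nr2f2 at -0.09 (0.456) and Plvap at 0.04 (0.871), and the median of the 5 was -0.0. The 5 tested lymphatic markers lay below 0 without passing in limma, 4 with an unadjusted p under 0.05, led by Mmrn1 (-0.40, limma adjusted p = 0.0942). In 5 endocardial markers the median was -0.02 (-0.12 to 0.08 with single hearts left out), with 0 called in limma and 2 higher at an unadjusted p under 0.05. Macrophage transcripts moved in the same direction as the receptors: all 8 markers lay below 0 with a median of -0.45, and Csf1r, C1qa and Adgre1 fell. The mean of the 8 was 6.83 to 7.14 in PBS and 6.34 to 6.48 in ETX. Its highest value was in PBS replicate 9, also highest in lung markers. PBS replicate 12, low in lung markers, was at 6.83. The part of lung tissue in these values was not tested. With single hearts left out Csf1r passed in 6 of 6 fits, C1qa in 2 and Adgre1 in 0. Red cell genes moved the other way, Alas2 (0.58, limma adjusted p = 0.0348) and Slc4a1 (0.63, 0.0385) being higher, with the call kept in 1 and 2 of those 6 fits. The part of these cells in the member results was not tested.

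Across the 6 hearts the members that fell varied together, which the group difference itself produces. Pearson's r of the log2 signals was 0.95 for Aplnr and Tie1, 0.91 for Angpt1 and Tie1, 0.89 for Aplnr and Angpt1 and 0.90 for Tek and Tie1, while Apln and Aplnr had -0.20. These are descriptions over 6 hearts in 2 groups. Among the 14953 tested genes other than predicted ones, the patterns most like that of Aplnr by the same measure were those of Mex3c, Med11, Ppic and Hp1bp3 (r = 0.998 each), of which Med11, a Mediator subunit gene, fell (-0.42, limma adjusted p = 0.0313) and passed in 1 of the 6 fits without 1 heart. Nearest to Tie1 were Smoc2, Setdb1, Jup and Pum2 (0.995 to 0.997), where Smoc2, a matricellular protein gene, fell (-0.48, limma adjusted p = 0.0251) and passed in 2 of those fits. Nearest to Angpt1 were Clasp1, Pla2g5, Rras and Gstk1 (0.991 to 0.997), where the secreted phospholipase gene Pla2g5 had the largest difference of the 4 (-1.23, limma adjusted p = 0.00487) and passed in all 6. Clasp1 (-0.34, limma adjusted p = 0.0362) and Gstk1 (-0.44, 0.0318) also fell but passed in 0 of those fits. Nearest to Tek were Klf6, Ano1, Klf7 and Dnm2 (0.993 to 0.998), none of them called in limma. Apln was followed most closely by Unc119, Vpreb1, Exo1 and Ckap2 (0.984 to 0.993) and Angpt2 by Rrad, BC024978, Sp5 and Bckdk (0.977 to 0.991), none of them called. With 6 hearts and this many genes, correlations of this height are found for every member.

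**Figure D5:**
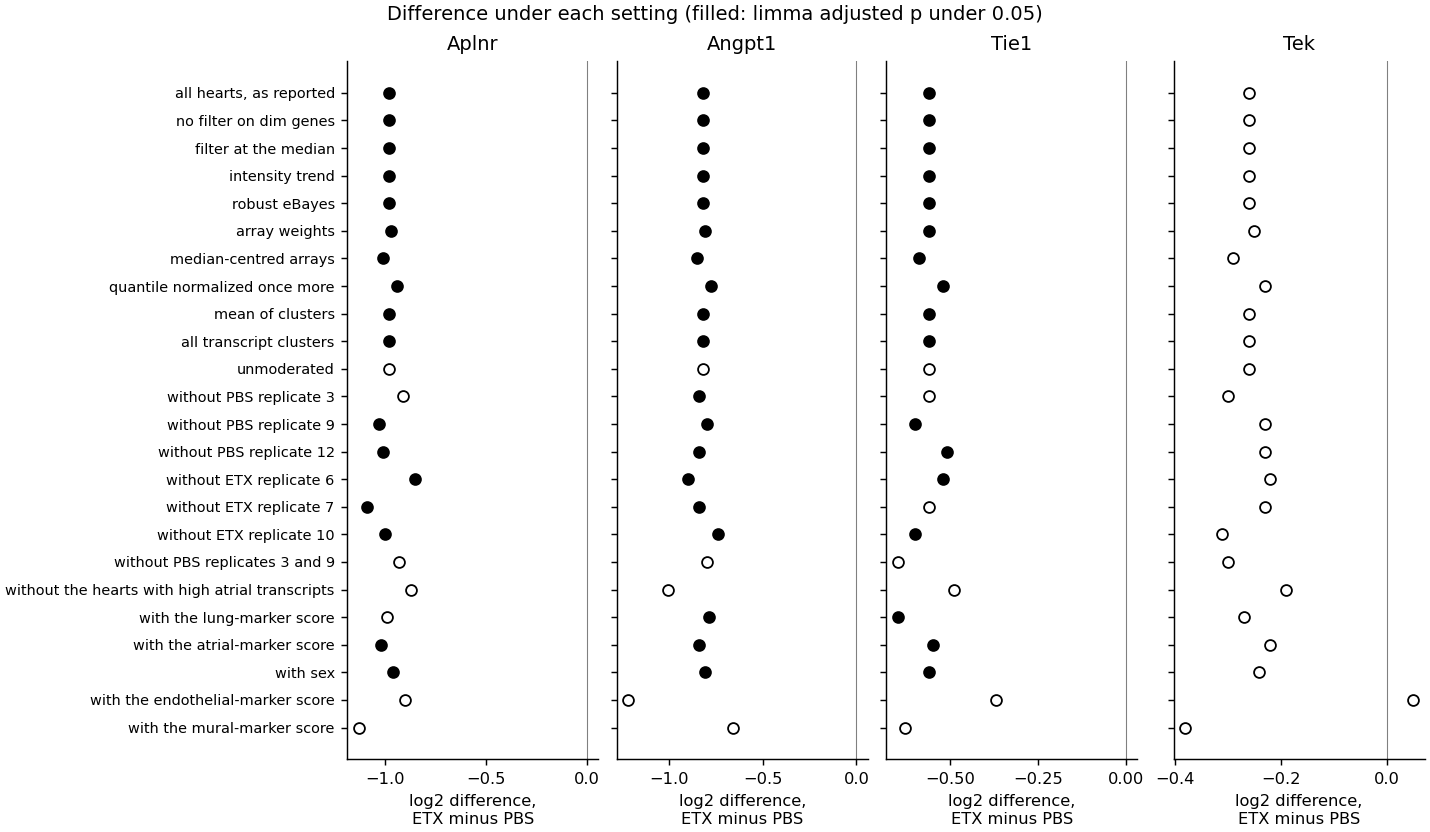
Log2 difference of ETX minus PBS (horizontal axis, a separate scale for each gene) for Aplnr, Angpt1, Tie1 and Tek under each setting (rows), filled where the limma adjusted p was under 0.05. Aplnr stayed between -1.13 and -0.85, Angpt1 between -1.22 and -0.66 and Tie1 between -0.65 and -0.37 in every setting shown, and Tek was above 0 in 1 of them, with the endothelial score, at 0.05.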

How the data were processed

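Total RNA from 6 mouse hearts (3 ETX, 3 PBS) was hybridised to 1 Affymetrix array each. The submitters' processing notes name Affymetrix Expression Console and RMA, without versions, for the log2 values that the authors deposited. RMA subtracts background, makes the arrays' distributions equal by quantiles and combines probes, and it compresses differences of dim transcripts. The build behind the array annotation was not given in the sources used here. Arrays had medians of 4.43 to 4.51 on the log2 scale and no detection calls.

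Of 35556 clusters 21789 had 1 gene symbol in the platform table, giving 19938 genes, each taken from its brightest cluster over all arrays. Genes with a mean under the lower quartile (3.45) were left out, leaving 14953. The groups were tested with limma 3.58.1 under R 4.3.3 (lmFit and eBayes, two-sided p), using Benjamini-Hochberg adjustment over all genes tested and a threshold of 0.05. The fit was tested on simulated data. Alternatives changed the filter, the moderation, the scaling, the choice of cluster, the hearts used or added a covariate. Within-heart differences were compared by exact permutation over hearts, with 95% intervals from a linear model. Of the list entries 154 were measured on a cluster with 1 gene; the others were not analysed here.

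The members and lists were chosen with earlier results of these data known, and no limma p is adjusted over a list or over the members alone. Named by rule are all members, the list genes that passed, the 3 smallest p of a list where none passed (not all are printed), and the 4 genes most correlated with each tested member. Outside that rule, Gnai2, Arrb1, Nos3, Klf2, Furin, Adam17, Ptprb, Akt1, Foxo1, Angpt4, Flt4, Vegfc, Kdr, Flt1, Vegfa, Pecam1, Eng, Gpihbp1, Pdgfrb, Notch3 and Postn were named as known components or for a small p, after their values were seen. Promoters are RefSeq's (GRCm38.p6). Plots used matplotlib 3.10.9 (Python 3.11.15).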

Additional observations from a re-analysis of the deposited data

How the results depend on the processing

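No paired analysis was possible because the groups share no replicate number. Of the 14953 tested genes 533 passed as reported. The count was 909 with the filter at the median, 870 with an intensity trend, 337 over all transcript clusters (187 higher, 150 lower), 1259 at a threshold of 0.1 and 60 at 0.01, and 94 to 241 with 1 heart left out. It was 120 with sex, 141 with the atrial score, 79 with the lung score, 10 with the mural score and 1 with the endothelial score in the fit. Without PBS replicates 3 and 9 it was 19, and without the 3 hearts highest in atrial markers (PBS replicate 3, ETX replicates 6 and 7) 2; each leaves a lone heart in 1 group, assumed to vary like the others. An unmoderated test called 0, with 2738 at an unadjusted p under 0.05. The atrial exclusion, the mural score and the values within each sex were added after seeing the data.

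The count of 3 members called was 1 to 3 with 1 heart left out and 1 at a threshold of 0.01. It was 0 with the unmoderated test, without PBS replicates 3 and 9 and with the mural score, where limma or the unmoderated test still gave 4 members an unadjusted p under 0.05. It was 0 as well without the hearts high in atrial markers (3 members unadjusted in limma) and with the endothelial score (2). Covariates take a degree of freedom. The cause of these losses, beyond fewer hearts and degrees of freedom, was not tested. Aplnr, Angpt1 and Tie1 kept their direction in every alternative run, but in most of them it was fixed beforehand. Their groups did not overlap, so leaving out hearts or splitting by sex could not turn the sign. The filter, the moderation and the choice of cluster left the differences as they were.

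Members that did not pass changed sign near 0. Apln was at -0.00136 with the endothelial score and -0.10 in female hearts. Tek was at 0.05 with the endothelial score. Angpt2 was between -0.04 and 0.03 with 1 heart left out (0.03 without PBS replicate 3, 0.00218 without ETX replicate 7, 0.00363 without ETX replicate 10), at 0.01 without PBS replicates 3 and 9, 0.00789 without the atrial-high hearts, 0.06 with the mural score and 0.01 in male hearts. Of the within-heart differences, Tie1 minus the endothelial mean moved from -0.34 to -0.42 without PBS replicates 3 and 9; the other within-heart differences moved by less than the pooled SD of the groups in the alternatives run for them, which can exceed the SD of 1 group.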
